A study of Homo sapiens with 15 samples.

Results

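The 6 genes described here, FOXA1, HOXB13, GATA2, GRHL2, SPDEF and ETV1, encode transcription factors of the luminal prostate epithelium. They were chosen by symbol, and each of the 6 had a row among the 17272 genes of the expression table. LNCaP, a human line of prostate cancer cells that respond to androgen, was kept for 2 days in medium with charcoal-stripped serum and then treated for 22 h. In 10 libraries the cells had received R1881, a synthetic androgen, at 1 nM with the solvent DMSO, and in 5 libraries R1881 at 1 nM together with enzalutamide, an antiandrogen, at 2 µM. All groups therefore carried the androgen, and no library of cells without R1881 was analysed here. LNCaP is a single cell line, so that the libraries describe treatments of this line only.

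Luminal prostate cells answer androgen at enhancers that lineage factors hold ready. Pioneer factors such as FOXA1 and GATA2 open chromatin there, and HOXB13, a homeodomain protein of posterior body position, marks enhancers as those of the prostate. GRHL2 is a grainyhead-like factor that maintains epithelial identity. SPDEF and ETV1 belong to the ETS family, SPDEF as a factor of differentiated secretory epithelium and ETV1 as an oncogene of prostate cancer.

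Expression is given as the deposited values, called CPM in the study's methods, which are reads scaled per library by a rule that was not found, to totals of 1053406 to 1078567 with R1881 and 985580 to 1008992 with enzalutamide. The libraries held 15830745 to 25416052 gene reads, and the members had at least 401 reads in every library. The androgen-induced genes KLK3, KLK2, TMPRSS2 and FKBP5 were all lower with enzalutamide, with KLK3 at 1590 ± 209 CPM with R1881 (n = 10, SD) and 134 ± 7.66 CPM with R1881 + enzalutamide (n = 5, SD). Of the 9 luminal epithelial markers all were detected, and KRT8, KRT18, CDH1 and EPCAM were each above 50 CPM in the mean of either treatment. The keratin KRT19 was low, with means of 2.73 CPM with R1881 and 0.162 CPM with enzalutamide. The 9 markers summed to 6830 to 7740 CPM with R1881 and 2920 to 3060 CPM with enzalutamide. At a limma adjusted p below 0.05, 5 of the 9 were lower, 3 higher and CDH1 not called. Among the lower ones were the keratins KRT8 (from 1580 to 349 CPM in the mean), KRT18 and KRT19. Over all genes tested 32.7% were lower and 29.8% higher by the same threshold. Of 5 basal markers only KRT14 was tested, and their summed level was 0.706 to 1.44 CPM with R1881 and 0 to 0.279 CPM with enzalutamide. TP63 and KRT5 had no row, nor did any of the 5 leukocyte markers, nor DCN, COL1A2 and DES among those of fibroblasts and muscle. Markers of fibroblasts and muscle, of which 5 of 8 were tested, summed to 12.3 to 18.4 CPM with R1881 and 27.8 to 34.9 CPM with enzalutamide, mostly through COL3A1 and COL1A1. The neuroendocrine sum of 2 markers out of 6 was 30.6 to 36.5 CPM and 56.4 to 59.6 CPM, carried by ENO2, while the other marker, SYP, was lower (from 1.6 to 1.05 CPM in the mean, log2 fold change -0.43, adjusted p = 0.000369 from limma) and CHGA had no row. The single endothelial marker tested, VWF, was at 2.08 to 2.84 CPM and 2.84 to 3.35 CPM. The part of these shifts in the results on the 6 factors was not tested, and bulk RNA cannot tell fewer expressing cells from less RNA per cell.

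Promoter sequences are shown for SPDEF, which fell most, and for GATA2, which rose most, to let their composition be compared. Each is the 250 bases before the RefSeq start of the main transcript (GRCh38.p14), 5′ to 3′ on the minus strand on which both genes lie, from chr6:34556330-34556579 and chr3:128493202-128493451. The capitals mark the match found to the forkhead motif TNTTTAC, here read on the opposite strand.
SPDEF: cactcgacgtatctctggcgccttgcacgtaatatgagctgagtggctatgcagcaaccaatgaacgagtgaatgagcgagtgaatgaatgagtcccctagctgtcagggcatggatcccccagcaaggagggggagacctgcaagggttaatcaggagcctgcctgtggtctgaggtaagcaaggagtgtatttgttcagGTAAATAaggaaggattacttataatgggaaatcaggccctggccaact
GATA2: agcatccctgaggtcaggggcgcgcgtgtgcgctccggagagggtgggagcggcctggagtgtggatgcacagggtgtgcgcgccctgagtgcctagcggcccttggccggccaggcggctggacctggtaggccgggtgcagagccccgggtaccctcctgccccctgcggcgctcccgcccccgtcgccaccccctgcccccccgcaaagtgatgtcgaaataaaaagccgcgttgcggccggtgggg

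Both strands of these windows were searched for the androgen response motif AGAACA, the forkhead motif TNTTTAC, the GATA motif AGATAA, the HOXB13 motif CAATAAA, the ETS motif GGAAGT and the grainyhead-like motif AACCNGTT, none of which overlapped another match. SPDEF had the forkhead match, whose bases lie 49 to 43 bases before the start, and 6.71% of 15109 promoter windows of the same length had at least 1. The windows of FOXA1, GATA2 and ETV1 had no match to any of the 6 motifs. Of all windows, 8.68% had the androgen response motif, 6.51% the GATA motif, 2.42% the HOXB13 motif, 21.4% the ETS motif and 1.29% the grainyhead-like motif. The GC content of the window was 50.8% for SPDEF and 72.8% for GATA2, with 60.8% for ETV1 and 67.2% for FOXA1. HOXB13 and GRHL2 were not searched here. A match describes letters of the window, and none of these data measured binding.

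The 6 factors split evenly by direction. SPDEF, GRHL2 and ETV1 were lower with R1881 + enzalutamide, and GATA2, HOXB13 and FOXA1 were higher, each with a limma adjusted p below 0.05, although the increases of HOXB13 and FOXA1 were small and their libraries overlapped. Of the 17046 genes tested, 62.5% passed the same threshold, 32.7% as lower and 29.8% as higher, so that passing it does not by itself set these factors apart from other genes. For 4 of the 6 the libraries of the treatments did not overlap, which held for 37.2% of all genes tested. The median log2 fold change was -0.17 over the 6 factors and -0.01 over all genes tested.

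**Figure D1:**
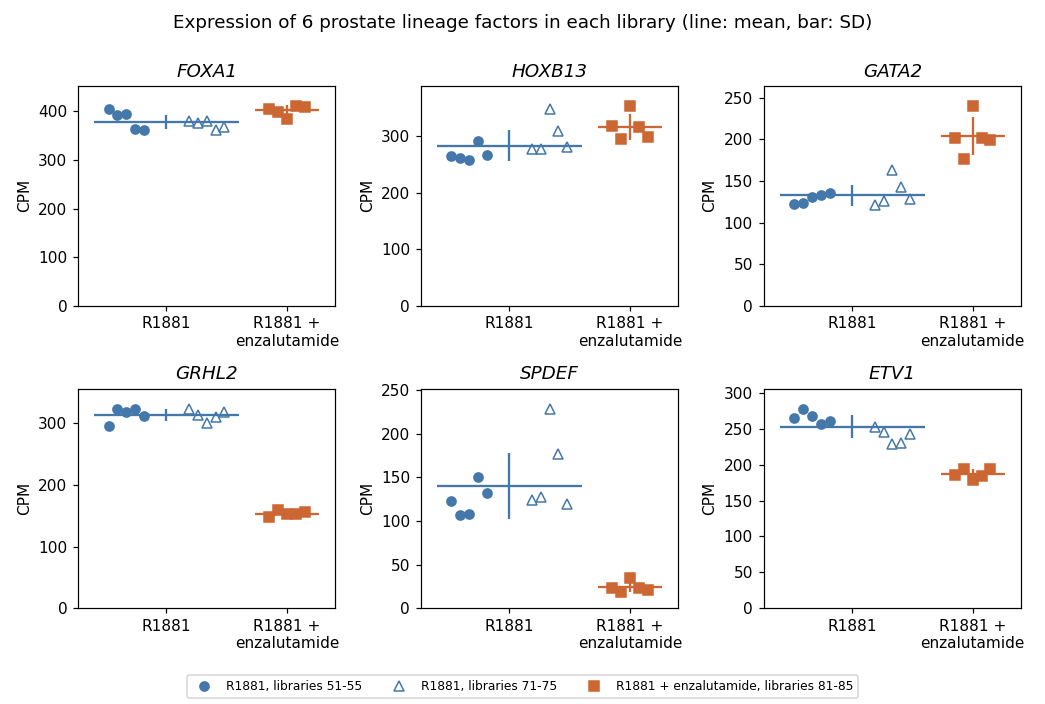
Expression of the 6 factors in CPM (vertical axes, from 0) in each library of R1881 (blue, filled circles for libraries 51 to 55 and open triangles for 71 to 75) and R1881 + enzalutamide (orange squares, libraries 81 to 85), with horizontal lines at the group means and vertical bars of 1 SD. SPDEF, GRHL2 and ETV1 lie lower in all 5 R1881 + enzalutamide libraries, GATA2 lies higher in all 5, and HOXB13 and FOXA1 overlap.

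SPDEF fell most of the 6. Its level was 107 CPM in the lowest, 126 CPM in the median and 229 CPM in the highest of the 10 R1881 libraries. In R1881 + enzalutamide replicates 1 to 5 it was 18.7, 34.7, 23.9, 20.9 and 23.9 CPM. Every enzalutamide library lay far below every R1881 library, and the median was lower by 81.0%. The means were 140 ± 37.5 CPM (n = 10, SD) and 24.4 ± 6.16 CPM (n = 5, SD), a 5.61-fold decrease on the log2(CPM + 0.5) scale (log2 fold change -2.49, standard error 0.151, adjusted p = 7.28e-12 from limma). Only 0.581% of the genes tested had a lower log2 fold change. SPDEF, a factor of secretory differentiation, occupies 34537802 to 34556333 of chromosome 6 (GRCh38, minus strand), and no other annotated gene overlaps it.

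GRHL2 was close to halved, with little spread between libraries. The 10 R1881 libraries ranged from 294 CPM over a median of 314 CPM to 323 CPM. With enzalutamide, replicates 1 to 5 held 159, 153, 148, 155 and 152 CPM, so that the treatments were widely separated. The mean decreased from 313 ± 9.78 CPM (n = 10, SD) to 153 ± 4.19 CPM (n = 5, SD), a 2.04-fold decrease (log2 fold change -1.03, standard error 0.0298, adjusted p = 2.38e-17 from limma), and 3.96% of the genes tested had a lower log2 fold change. GRHL2 maintains the epithelial state and spans 101492439 to 101669726 on the plus strand of chromosome 8, where noncoding genes and pseudogenes without a row in the table overlap it on the opposite strand.

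ETV1 fell by less than SPDEF and GRHL2, but in all 5 libraries. Its R1881 libraries lay between 229 and 278 CPM with a median of 255 CPM. R1881 + enzalutamide replicates 1 to 5 held 194, 178, 185, 194 and 184 CPM, all below the lowest R1881 library. The means were 253 ± 16.1 CPM (n = 10, SD) and 187 ± 7.15 CPM (n = 5, SD), a 1.35-fold decrease (log2 fold change -0.43, standard error 0.0431, adjusted p = 2.2e-08 from limma), and the median was lower by 27.2%. ETV1, an ETS factor activated by rearrangement in part of prostate cancers, is annotated at 13891229 to 13991425 of chromosome 7 (minus strand), while in LNCaP the gene is known to have moved into the MIPOL1 gene on chromosome 14.

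GATA2 rose in every library. The R1881 libraries held 121 to 163 CPM with a median of 130 CPM. R1881 + enzalutamide replicates 1 to 5 held 176, 240, 202, 199 and 201 CPM, each above the highest R1881 library. The mean was 133 ± 12.6 CPM (n = 10, SD) with R1881 and 204 ± 23.1 CPM (n = 5, SD) with enzalutamide, a 1.53-fold increase (log2 fold change 0.61, standard error 0.0659, adjusted p = 6.58e-08 from limma), and 8.35% of the genes tested had a higher log2 fold change. GATA2, a zinc finger pioneer factor of androgen-regulated enhancers, spans 128479427 to 128493201 on the minus strand of chromosome 3. The noncoding gene GATA2-AS1 overlaps it on the opposite strand and was at 18.7 ± 1.34 CPM with R1881 (n = 10, SD) and 18.6 ± 1.43 CPM with enzalutamide (n = 5, SD). For SPDEF, GRHL2, ETV1 and GATA2 a two-sided exact permutation test (3003 ways to regroup the 15 libraries) gave p = 0.000333 each, the smallest this design allows.

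HOXB13 was higher with enzalutamide by little more than the spread between libraries. It was at 257 CPM in the lowest, 277 CPM in the median and 347 CPM in the highest R1881 library. The 5 R1881 + enzalutamide libraries held 295, 353, 318, 298 and 316 CPM, of which 1 lay above the R1881 range and all 5 above the R1881 median. The mean was 283 ± 27.1 CPM (n = 10, SD) and 316 ± 22.9 CPM (n = 5, SD), a 1.12-fold difference (log2 fold change 0.16, standard error 0.0586, adjusted p = 0.021 from limma; exact permutation test, two-sided, p = 0.033). Without R1881 + enzalutamide replicate 2 the log2 fold change was 0.12 with an adjusted p of 0.0825 from limma. HOXB13, a homeodomain factor of prostate cells, occupies 48724763 to 48728750 of chromosome 17 (minus strand).

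FOXA1 differed least. The R1881 libraries held 362 to 405 CPM with a median of 378 CPM. The R1881 + enzalutamide libraries held 398, 385, 405, 409 and 411 CPM, of which 3 lay above the R1881 range. The mean was 378 ± 15.1 CPM (n = 10, SD) with R1881 and 402 ± 10.3 CPM (n = 5, SD) with enzalutamide, a 1.06-fold difference (log2 fold change 0.09, 95% interval 0.02 to 0.15, adjusted p = 0.0219 from limma; exact permutation test, two-sided, p = 0.012). Without R1881 + enzalutamide replicate 4 or replicate 5 the adjusted p was 0.0546 or 0.0629 from limma. FOXA1, the forkhead pioneer factor of luminal cells, spans 37589552 to 37596059 on the minus strand of chromosome 14. TTC6 starts within these bounds on the opposite strand, and the strand setting of the read counting was not found in the sources used here.

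**Figure D2:**
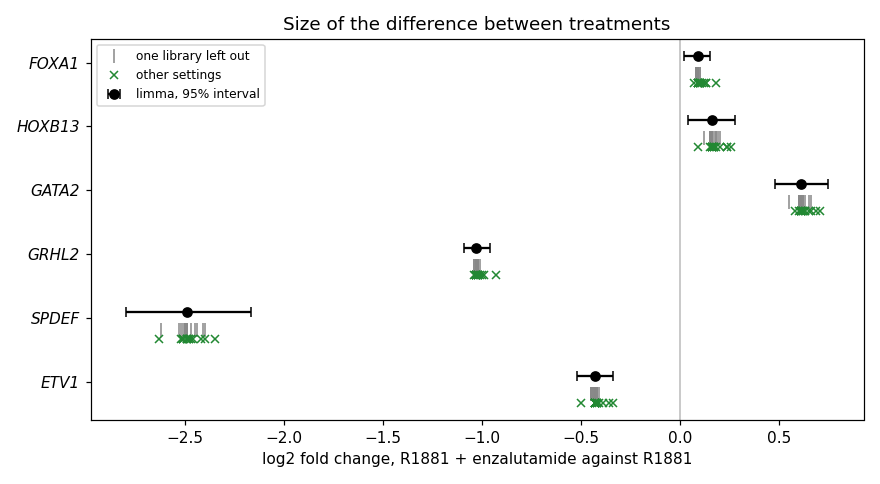
Log2 fold change of each factor with R1881 + enzalutamide against R1881 (horizontal axis), as the limma estimate with its 95% interval (black), with each library left out in turn (grey ticks) and under the other settings (green crosses). SPDEF stays between -2.63 and -2.35 and GRHL2 between -1.04 and -0.93, whereas FOXA1 and HOXB13 stay above 0 at no more than 0.26.

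The library numbers in the labels divide the R1881 libraries into 51 to 55 and 71 to 75, and since 81 to 85 are all R1881 + enzalutamide, number series and treatment cannot be told apart beyond the comparison of the R1881 series with each other. Between these, 3.71% of the genes tested had a limma adjusted p below 0.05, and of the 6 factors ETV1 was the only one. As deposited, ETV1 held 257 to 278 CPM in libraries 51 to 55 and 229 to 252 CPM in libraries 71 to 75, without overlap (log2 difference of 71 to 75 minus 51 to 55 -0.15, adjusted p = 0.0324 from limma; two-sided exact permutation test over 252 regroupings, p = 0.00794, the smallest they allow). The enzalutamide libraries lay below both series, and the log2 fold change of ETV1 was -0.50 against libraries 51 to 55 alone and -0.36 against libraries 71 to 75 alone. For HOXB13 the same fold changes were 0.24 and 0.09, and against libraries 71 to 75 the difference did not pass (adjusted p = 0.255 from limma). For FOXA1 they were 0.07 and 0.11, and against libraries 51 to 55 the difference did not pass (adjusted p = 0.128 from limma). GATA2, GRHL2 and SPDEF passed against either series, with 0.65 and 0.58, -1.03 and -1.02, and -2.35 and -2.63.

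The factors differed in how much libraries of the same treatment varied, and the spread was largest for transcripts of high GC content. The coefficient of variation with R1881 was 26.8% for SPDEF, whose longest transcript is 64.6% GC, 9.48% for GATA2 (60.4% GC) and 9.58% for HOXB13 (57.7% GC). It was 3.98% for FOXA1 (50.4% GC), 3.13% for GRHL2 (49.8% GC) and 6.36% for ETV1, the most AT-rich at 37.1% GC. R1881 replicate 6 was the highest R1881 library for SPDEF, HOXB13 and GATA2 and the lowest for ETV1, and R1881 + enzalutamide replicate 2 stood in the same way within its group. Across 14621 genes the deviations of these libraries from their group mean rose with GC content, by 0.22 log2 units per 10 percentage points of GC in R1881 replicate 6 and by 0.147 in R1881 + enzalutamide replicate 2, against -0.129 in R1881 replicate 10 at the other end.

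After each library was corrected for its trend on GC content, an alternative chosen after seeing the data, HOXB13 held 264 to 291 CPM with R1881 and 321 to 330 CPM with R1881 + enzalutamide. The groups then no longer overlapped, and the log2 fold change was 0.24 (adjusted p = 2.97e-10 from limma), beside 0.16 as deposited. Unlike the slopes above, the trend removed was fitted to deviations from the mean over both treatments. Its removal can therefore also shift the treatments against each other, and the part of this in the wider difference was not tested. GATA2 held 124 to 141 CPM and 204 to 217 CPM, and its coefficient of variation with R1881 decreased to 4.49%. SPDEF held 121 to 160 CPM and 23.1 to 29.2 CPM, with a log2 fold change of -2.42. FOXA1 still overlapped, at 360 to 407 CPM and 391 to 421 CPM. In the 7 R1881 and 4 R1881 + enzalutamide libraries left without those of the steepest trend, the log2 fold change was 0.17 for HOXB13 and 0.10 for FOXA1, and all 6 factors passed.

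**Figure D3:**
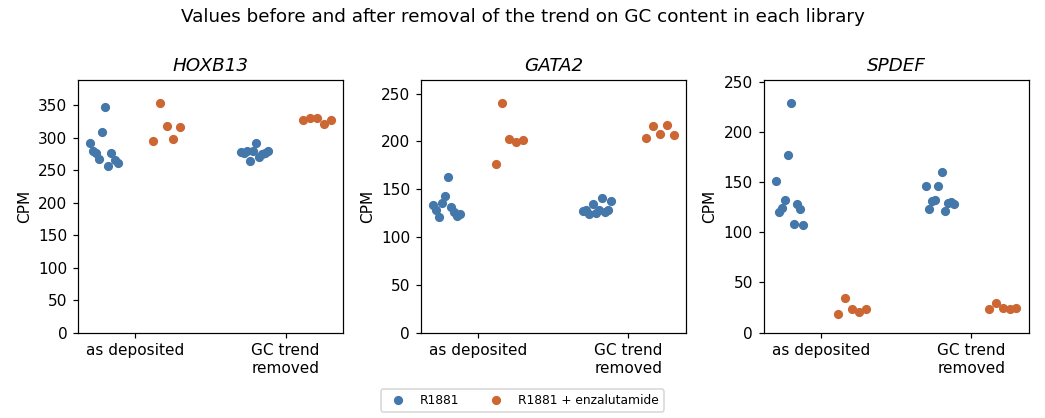
HOXB13, GATA2 and SPDEF in CPM (vertical axes, from 0) in the R1881 (blue) and R1881 + enzalutamide (orange) libraries, as deposited and after correction of each library for its GC trend. The HOXB13 libraries overlap as deposited and are separated after removal, at 264 to 291 CPM and 321 to 330 CPM.

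Levels of different genes were compared per kilobase of exon (GENCODE v44), a length that may differ from that of the annotation used for counting. With R1881 the order was HOXB13 at 93.1 ± 8.92 CPM per kb, FOXA1 at 85.7 ± 3.41, SPDEF at 73.2 ± 19.6, GRHL2 at 51.7 ± 1.62, GATA2 at 27.0 ± 2.56 and ETV1 at 26.3 ± 1.68 (n = 10, SD). The libraries of HOXB13 overlapped those of FOXA1, those of FOXA1 overlapped SPDEF and those of GATA2 overlapped ETV1, while SPDEF did not overlap GRHL2, nor GRHL2 GATA2. With R1881 + enzalutamide the order was HOXB13 at 104 ± 7.54 CPM per kb, FOXA1 at 91.0 ± 2.34, GATA2 at 41.4 ± 4.70, GRHL2 at 25.3 ± 0.691, ETV1 at 19.5 ± 0.745 and SPDEF at 12.8 ± 3.22 (n = 5, SD), and no neighbours overlapped. SPDEF thus moved from rank 3 to rank 6, and GATA2 from rank 5 to rank 3.

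In their families, FOXA1, HOXB13, GATA2 and GRHL2 were each the highest detected member per kilobase in either treatment, and SPDEF led the ETS family with R1881 but not with enzalutamide. No other FOXA gene had a row. HOXC13, the homologue of HOXB13 in the HOXC cluster, rose from 9.23 ± 0.986 CPM (n = 10, SD) to 27.5 ± 2.06 CPM (n = 5, SD), a log2 fold change of 1.53 (adjusted p = 1.43e-13 from limma). GATA6 rose from 4.48 ± 0.520 CPM to 6.08 ± 0.181 CPM, in the direction of GATA2, and GATA3 had no row. GRHL1 fell from 18.3 ± 1.32 CPM to 11.0 ± 1.21 CPM (log2 fold change -0.71), in the direction of GRHL2. In the HOXB cluster all 4 genes tested were called higher, where 29.8% of all genes tested were higher and 62.5% were called in either direction. Besides the abundant HOXB13 these were HOXB9, HOXB6 and HOXB3, with means of no more than 2.37 CPM in either treatment. Against R1881 libraries 51 to 55 alone HOXB9 did not pass (adjusted p = 0.0803 from limma). HOXB9 also lost its call in 2 of the fits with 1 library, or those of the steepest GC trend, left out. Its log2 fold changes were 0.24 to 0.42 over these fits. HOXB6 did not pass against libraries 71 to 75 alone (adjusted p = 0.0629 from limma).

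Of 28 ETS genes 17 were tested, of which 8 were lower, 4 higher and 5 not called, with a median log2 fold change of -0.15, where 32.7% of all genes tested were lower and 29.8% higher. Besides SPDEF, the most lowered were ELK4, a serum response cofactor, from 312 ± 23.6 CPM (n = 10, SD) to 117 ± 8.41 CPM (n = 5, SD), and ELF2, with log2 fold changes of -1.41 and -0.89. The most raised was ELF3, an epithelial ETS factor, which was at 15 ± 1.24 CPM and 32.7 ± 3.08 CPM, followed by ETV6 and ELK3 with log2 fold changes of 0.65 and 0.52. The 3 most abundant per kilobase with R1881 were SPDEF at 73.2 CPM per kb, EHF, an epithelial factor, at 42.8 and ETV1 at 26.3, and with enzalutamide they held 12.8, 23.3 and 19.5. ETV4 and ETV5, the nearest relatives of ETV1, and ERG had no row and were not analysed here.

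**Figure D4:**
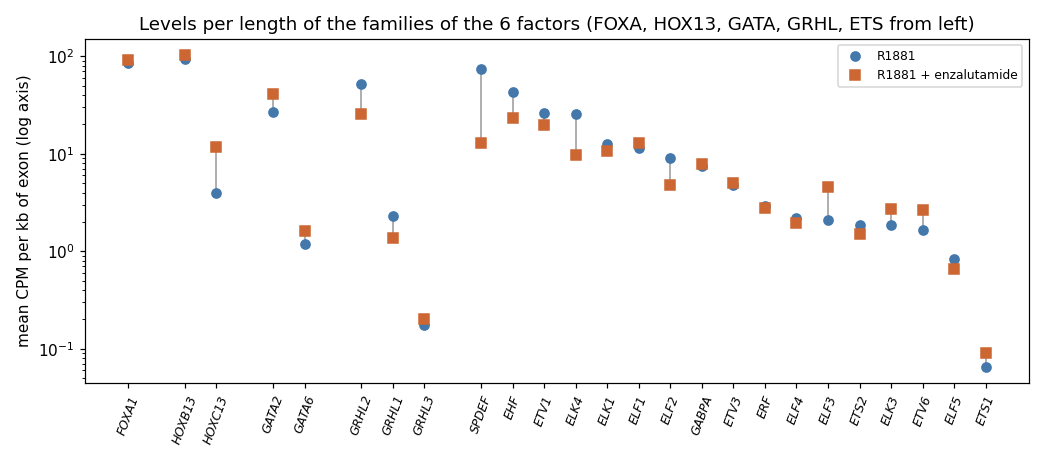
Mean CPM per kilobase of exon (logarithmic vertical axis) of the tested genes of the families of FOXA1, HOXB13, GATA2, GRHL2 and the ETS genes, with R1881 (blue circles) and R1881 + enzalutamide (orange squares) joined by a line. FOXA1 and HOXB13 hardly differ, while SPDEF decreases from 73.2 to 12.8 and HOXC13 increases from 3.92 to 11.7.

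Of 23 other factors of luminal prostate cells or of the androgen response 11 were lower, 9 higher and 3 not called, with a median log2 fold change of -0.06, beside 32.7% lower, 29.8% higher and a median of -0.01 over all genes tested. Outside the naming rule, 2 of these calls are named because they depended on the setting. TFAP2A, higher at an adjusted p of 0.047 from limma, lost its call in 10 of the fits with libraries left out. ONECUT2, called lower, did not pass with library totals set to 1000000 (adjusted p = 0.207 from limma). Lowest were ZBTB16, a zinc finger repressor, from 26.0 ± 3.8 CPM (n = 10, SD) to 6.60 ± 1.05 CPM (n = 5, SD), and CREB3L4, with log2 fold changes of -1.90 and -1.74. Highest were HOXA10, a homeodomain factor, from 14.4 ± 1.03 CPM to 40.0 ± 1.30 CPM, and TRPS1, a zinc finger factor of the GATA type, with log2 fold changes of 1.44 and 1.19.

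Of 12 epithelial genes known as GRHL2 targets 3 were lower, 5 higher and 4 not called, with a median log2 fold change of 0.06. Over all genes tested 62.5% were called, so that this count does not set these genes apart. ESRP2, a splicing factor of epithelial cells, fell from 107 ± 6.52 CPM (n = 10, SD) to 58.3 ± 3.46 CPM (n = 5, SD). The membrane protease ST14 and the splicing factor ESRP1 followed, with log2 fold changes of -0.48 and -0.19. TMPRSS13, a membrane protease, PROM2 and OVOL1 were raised, with 0.96, 0.74 and 0.59. CDH1, which encodes E-cadherin and was picked after its values were seen, was at 809 ± 33.3 CPM with R1881 and 827 ± 28.2 CPM with enzalutamide and did not pass (adjusted p = 0.434 from limma). It passed as higher with library totals set to 1000000 (log2 fold change 0.12, adjusted p = 0.00111 from limma). With edgeR (0.07, adjusted p = 0.0343 from edgeR) and with the GC trend removed (0.05, adjusted p = 0.0499 from limma) it passed narrowly. Protein levels were not measured.

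Of 10 secretory genes known to depend on SPDEF in mucosal epithelia only 3 had a row. Of these 2 were lower, where 32.7% of all genes tested were lower, and 3 genes are too few to compare with that share. CREB3L4 is also one of the other factors above. CREB3L4 fell from 258 ± 9.60 CPM (n = 10, SD) to 76.8 ± 0.645 CPM (n = 5, SD), and AGR2, a protein disulfide isomerase of secretory cells, from 14.7 ± 1.32 CPM to 8.57 ± 0.978 CPM (log2 fold change -0.75, adjusted p = 2.27e-08 from limma). TFF3 was at 1.5 ± 0.442 CPM and 1.52 ± 0.485 CPM and did not pass.

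**Figure D5:**
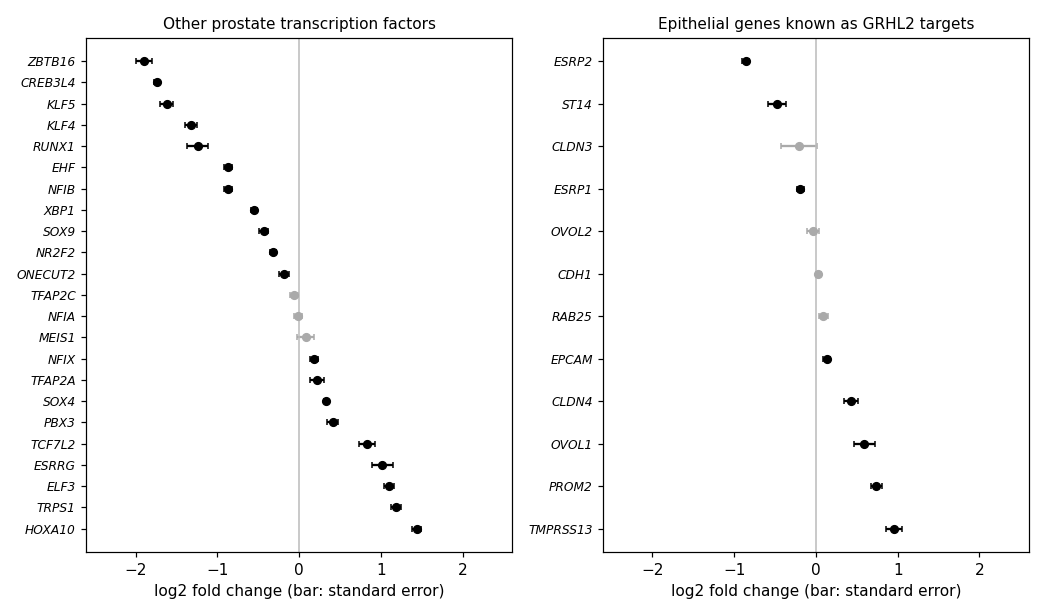
Log2 fold changes (horizontal axes, bars of 1 standard error) of 23 other prostate transcription factors (left) and of 12 epithelial genes known as GRHL2 targets (right), black where the adjusted p from limma was under 0.05 and grey otherwise. The factors spread from -1.90 for ZBTB16 to 1.44 for HOXA10, and the epithelial genes from -0.86 for ESRP2 to 0.96 for TMPRSS13.

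The genes within 500 kb of each factor were read from the same fit, in which 62.5% of all genes tested were called, 32.7% as lower and 29.8% as higher. Next to HOXB13, PRAC1 and PRAC2, small prostate and colon genes, were higher with log2 fold changes of 0.76 and 0.42, as was HOXB9 with 0.35, whereas UBE2Z, farther away, was lower with -0.23. Of 11 protein-coding neighbours of HOXB13 6 were higher and 3 lower. PACSIN1, which ends 2.57 kb from SPDEF on the opposite strand, fell from 38.1 ± 5.13 CPM (n = 10, SD) to 21.9 ± 2.20 CPM (n = 5, SD), and ILRUN, BLTP3A and SNRPC had log2 fold changes of -0.32, -0.27 and -0.13, while 6 of its 10 neighbours were not called and none was higher. Near GATA2 the neighbours went both ways, with 4 lower, 3 higher and 1 not called of 8. RPN1, SEC61A1 and RUVBL1, genes of the secretory pathway and of chromatin remodelling, had log2 fold changes of -0.70, -0.61 and -0.25, and CFAP92 had 0.38. Around GRHL2, ZNF706 had a log2 fold change of -0.89 and NCALD 0.34. Apart from HOXB9, HOXB6 and HOXB3, the neighbours were read under 1 setting only.

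For ETV1 both its reference position and its known place in LNCaP were read. DGKB, the neighbour of ETV1 on the reference chromosome, was lower, at 21.6 ± 2.03 CPM with R1881 (n = 10, SD) and 18.3 ± 0.859 CPM with enzalutamide (n = 5, SD), a log2 fold change of -0.23 (adjusted p = 0.00401 from limma). MIPOL1, which lies 10.4 kb from FOXA1, was at 60.3 ± 4.70 CPM and 62.4 ± 2.91 CPM and did not pass (adjusted p = 0.402 from limma). TTC6, on the other side of FOXA1, was at 34 ± 3.68 CPM and 37.5 ± 2.91 CPM and did not pass either (adjusted p = 0.0783 from limma). None of the 3 protein-coding neighbours of FOXA1 was called, and ETV1 was the one that was lower among ETV1, FOXA1, MIPOL1 and TTC6. Values per gene do not separate copies of a chromosome, so the genes on the rearranged copy alone were not tested.

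For each factor the 3 most similar genes were taken from 12164 genes with a mean of at least 5 CPM, as those with the smallest root mean square difference of log2 profiles over the 15 libraries, each profile centred on its mean. The difference between treatments is part of these profiles, so that similar fold changes of the genes named here followed from the choice. SPDEF had the most distant ones, NR4A1 at 0.155, C19orf48 at 0.19 and KLK4, a kallikrein, at 0.19, all of them lower with enzalutamide. For GRHL2 MTOR, a growth-regulating kinase, at 0.028 and VCL, vinculin, at 0.04 are named, with log2 fold changes of -1.01 and -1.02. ETV1 was most like SRPK1 (0.027), SLC38A2 (0.032) and ENAH (0.032). GATA2 was most like the collagen receptor DDR1 (0.063), PBXIP1 (0.066) and WWP2 (0.073), HOXB13 like TBCB (0.032), REPIN1 (0.035) and PODXL2 (0.035), and FOXA1 like SNX3 (0.036), CCNY (0.038) and ENSA (0.039). None of the 6 factors was among the nearest genes of another.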

How the data were processed

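LNCaP cells were sequenced as polyadenylated RNA (TruSeq stranded kit, single-end reads). The authors demultiplexed with bcl2fastq 2.17 per the labels, mapped with STAR to GRCh38, counted with featureCounts and deposited 1 normalized signal per gene and library, called CPM in the methods. The annotation, strand setting, gene filter and library scaling were not given in the sources used here. Columns summed to 1053406 to 1078567 with R1881 and 985580 to 1008992 with enzalutamide, so the scaling was not to equal totals, and 100% of the values were whole multiples of 1 read (tolerance 0.01 reads), which returned the counts. The labels give 10 R1881 and 5 R1881 + enzalutamide libraries, the reverse of the methods text. All 55 pairs of libraries within a treatment differed by more than sampling noise (chi-square per degree of freedom at least 1.62). The study calls them biological replicates. The labels do not name separate cultures, and p-values measure the spread between these libraries.

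Differences were tested with limma 3.58.1 in R 4.3.3 on log2(CPM + 0.5) for genes with a mean of at least 0.5 CPM (mean-variance trend, Benjamini-Hochberg over 17046 genes, threshold 0.05). The design had assumed plain CPM, and the test was kept for the rescaled values. Fold changes on this scale understate those of low genes. Single factors were also compared with exact permutation tests. Alternatives covered pseudocount, filter, scaling, edgeR 4.0.16 and DESeq2 1.42.0 on the recovered reads, replicate blocks, each R1881 series alone and each library left out. The trend on GC content was modelled per library as a spline with 5 degrees of freedom, on deviations from the mean over both treatments. Of the tests, only the limma fit was also tried on simulated reads. These held no trend on GC content between libraries, so they do not show how the fit behaves with such a trend.

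The 6 factors and all lists were chosen with earlier results of these data known. Named are the factors, the check genes, paralogues with a mean of at least 1 CPM, of the other lists the 3 most raised and 3 most lowered called genes with a mean of at least 1 CPM, up to 4 called protein-coding neighbours per factor, MIPOL1, TTC6, DGKB, the 3 most similar profiles and the 3 most abundant ETS genes. Older symbols were matched through the RefSeq and GENCODE name tables, and genes without a row were not analysed here. Some genes that this rule would name are not reported here.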

Additional observations from a re-analysis of the deposited data

Results flagged for a closer look

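Over 14 groups of 5 or 10 libraries, 2 held a library far from the others, where chance gives about 0.7. GATA2 was at 163 CPM in R1881 replicate 6, while the other R1881 libraries held 121 to 143 CPM, and with the trend on GC content removed this library was at 128 CPM. R1881 + enzalutamide replicate 5 held 25416052 reads on genes and the others of its group 21188661 to 22329140. Without this library the log2 fold change of FOXA1 was 0.08 with an adjusted p of 0.0629 from limma, and the other 5 factors passed.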

How the results depend on the processing

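Under all 30 alternative settings each, SPDEF, GRHL2, ETV1 and GATA2 kept their direction and an adjusted p under 0.05, with ranges of -2.63 to -2.35, -1.04 to -0.93, -0.50 to -0.34 and 0.55 to 0.71 in log2 fold change. FOXA1 passed in 27 and HOXB13 in 28 of 30. FOXA1 was at 0.07 against R1881 libraries 51 to 55 alone and HOXB13 at 0.09 against libraries 71 to 75 alone, and neither passed there. With each library left out in turn FOXA1 lay between 0.08 and 0.10 and HOXB13 between 0.12 and 0.20, and the cause was not tested. With library totals set to 1000000 the median of all genes moved from -0.01 to 0.075, FOXA1 was at 0.18 and HOXB13 at 0.26, and 4288 genes were lower and 6641 higher, beside 5577 and 5083 as reported. Replicate numbers of the titles did not pair the libraries (correlation of deviations over genes -0.068 to 0.074). By the last digit of the library number the correlations ran from -0.417 to 0.668, both with R1881 + enzalutamide replicate 2. With a replicate block by title number 44 in place of 46 of 60 list genes were called, and over all genes tested 5268 were lower and 4775 higher. FOXA1 was then at 0.13 and HOXB13 at 0.15, and HOXB6 lost its call (adjusted p = 0.061 from limma). On the recovered reads edgeR called 4948 genes lower and 5796 higher and DESeq2 5351 and 5201. Low counts limit list genes of a few CPM.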
